A study of Rattus norvegicus with 9 samples.

Results

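The enzymes of cholesterol synthesis were examined in rat tongue tissue after carcinogen exposure, with and without the interleukin-1 receptor antagonist (IL-1Ra). The list held 7 genes, Hmgcs1, Idi1, Fdft1, Sqle, Lss, Cyp51 and Dhcr7, and every probe set whose annotation gave a single one of these symbols was taken. This rule found 6 of the 7 genes with 10 probe sets, of 31042 probe sets tested for 14217 named genes. Hmgcs1 had no such probe set and was not analysed here. Idi1, Fdft1, Lss and Cyp51 had 2 probe sets each, and Sqle and Dhcr7 had 1 each.

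Cholesterol is built from acetyl-CoA through mevalonate, which is turned into isoprenoid units, joined into squalene, oxidised, closed into the ring of lanosterol and trimmed to cholesterol. The pathway is switched on by SREBP transcription factors, encoded by Srebf2 and Srebf1. When membranes hold little sterol, the escort protein encoded by Scap carries SREBP to the Golgi, where proteases free the part that enters the nucleus. When sterol is plentiful, the proteins encoded by Insig1 and Insig2 hold Scap and SREBP back in the endoplasmic reticulum. Keratinised epithelia such as that of the tongue make cholesterol both for dividing cells and for the lipid between cornified cells.

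The tissue came from male Sprague-Dawley rats, in 3 groups of 3 arrays. Rats of the IL-1Ra group (labelled 4NQO+IL-1Ra) and of the 4NQO group were given 0.002% 4-nitroquinoline oxide (4NQO) to drink, a DNA-damaging compound used to induce precancerous and then malignant lesions of the tongue, and normal rats had distilled water alone. Exposure to 4NQO was recorded as 22 weeks, with first lesions at week 14. The methods state 14 weeks of exposure before the rats were divided into these groups. By the study's methods, rat recombinant IL-1Ra was injected weekly beneath the tongue mucosa, in the middle part, from week 14 to week 22 in the IL-1Ra group, and saline was injected in the 4NQO group. The labels say instead that rats on 4NQO were killed between those weeks once lesions could be seen, and neither source gives the lesion stage of a sampled tongue. The methods name no injection for normal rats, so comparisons with normal tongue cannot tell 4NQO from injection. Arrays are numbered within a group, and nothing in the labels ties each to a separate animal, so the p-values measure the spread between these samples. Each sample was a piece of tongue with epithelium, connective tissue, vessels and muscle, in which fewer cells of a type and less RNA per cell cannot be told apart. Levels are log2 of the deposited intensity, and array medians lay between 5.23 and 5.27 log2. Quartiles differed more between arrays and are given with the processing. Where a gene had 2 probe sets, the one that was brighter on average is described first, and levels of different probe sets were not compared with each other.

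None of the 6 genes passed the test in any of the 3 comparisons (limma, adjusted p up to 0.05, 0 of 6 genes and 0 of 10 probe sets each time). Among all probe sets tested, 9.41% were called higher and 5.44% lower in 4NQO than in normal tongue, 1.59% higher and 0.731% lower in IL-1Ra than in 4NQO tongue, and 1.33% higher and 0.541% lower in IL-1Ra than in normal tongue. The last 2 shares, 413 and 168 probe sets, fell to 0 and 0 without any one of the normal arrays and to at most 3 and 3 without any one of the IL-1Ra arrays. At an unadjusted p of 0.05, the counts were 1, 2 and 0 of the 10 probe sets for 4NQO against normal, IL-1Ra against 4NQO and IL-1Ra against normal, where all probe sets gave 32.9%, 19% and 22.7%. The genes spread widely among the 4NQO arrays. 4NQO array 3 had high and 4NQO array 2 low levels of most enzymes of the pathway, and 4 of the 6 genes differed by at least 2.54-fold between the highest and the lowest array of that group. Sqle, the squalene epoxidase, had the largest difference between group means of the 6 genes, 1.16 log2 for IL-1Ra against 4NQO, which missed the adjusted threshold.

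The promoters are shown for Idi1, Lss and Cyp51, and for Msmo1, which acts after Cyp51 and was the only enzyme of the pathway whose first probe set passed the test below. The windows run from 250 bases before to 50 bases after the gene's start in RefSeq (assembly GRCr8), at chr17:66547475-66547774 on the minus strand for Idi1, chr20:12118181-12118480 on the minus strand for Lss, chr4:30991443-30991742 on the plus strand for Cyp51 and chr16:29746863-29747162 on the plus strand for Msmo1. Capitals mark CCAAT boxes (CCAAT, or ATTGG where the match is on the other strand) and GC boxes (GGGCGG, or CCGCCC on the other strand), which bind NF-Y and Sp1, known partners of SREBP at sterol-controlled promoters.
Idi1: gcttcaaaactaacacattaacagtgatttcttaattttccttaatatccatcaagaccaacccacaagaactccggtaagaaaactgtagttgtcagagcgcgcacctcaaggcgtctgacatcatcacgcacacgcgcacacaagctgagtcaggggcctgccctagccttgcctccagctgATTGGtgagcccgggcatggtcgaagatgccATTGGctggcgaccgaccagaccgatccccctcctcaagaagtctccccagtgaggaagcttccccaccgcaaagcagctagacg
Lss: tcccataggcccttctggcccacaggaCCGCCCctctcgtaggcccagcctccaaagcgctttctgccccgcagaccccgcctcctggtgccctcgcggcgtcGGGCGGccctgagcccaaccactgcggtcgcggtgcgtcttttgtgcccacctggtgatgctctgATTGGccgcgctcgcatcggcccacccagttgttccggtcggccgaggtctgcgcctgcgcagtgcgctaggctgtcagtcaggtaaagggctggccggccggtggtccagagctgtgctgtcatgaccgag
Cyp51: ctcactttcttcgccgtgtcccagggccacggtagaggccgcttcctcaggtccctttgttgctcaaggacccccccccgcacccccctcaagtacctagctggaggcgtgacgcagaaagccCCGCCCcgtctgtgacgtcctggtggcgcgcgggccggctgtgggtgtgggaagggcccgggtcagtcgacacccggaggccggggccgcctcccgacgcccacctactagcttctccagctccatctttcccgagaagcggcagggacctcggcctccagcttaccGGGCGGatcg
Msmo1: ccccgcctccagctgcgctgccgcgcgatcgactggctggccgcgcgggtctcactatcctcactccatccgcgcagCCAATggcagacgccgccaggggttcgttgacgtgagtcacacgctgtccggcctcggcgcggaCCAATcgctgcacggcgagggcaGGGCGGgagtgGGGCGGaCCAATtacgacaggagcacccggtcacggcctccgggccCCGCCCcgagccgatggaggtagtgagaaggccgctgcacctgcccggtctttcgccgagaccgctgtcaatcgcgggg
Windows were found for 4 of the 6 genes, Idi1, Lss, Cyp51 and Dhcr7. The CCAAT box was present in 2 of these 4 (Idi1 and Lss) and in 10 of 11 other enzymes of the pathway with a window, against 37.5% of all 33469 promoters in the table. The GC box was present in 3 of 4 (Lss, Cyp51 and Dhcr7) and in 10 of 11 others, against 33.1% of all. In Dhcr7, 2 GC boxes overlapped by 1 base. A strict form of the sterol regulatory element, TCACNCCAC on either strand, was in 0 of 4 and 0 of 11 windows and in 1.12% of all. These matches describe the letters of the windows only, and binding was not measured.

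**Figure D1:**
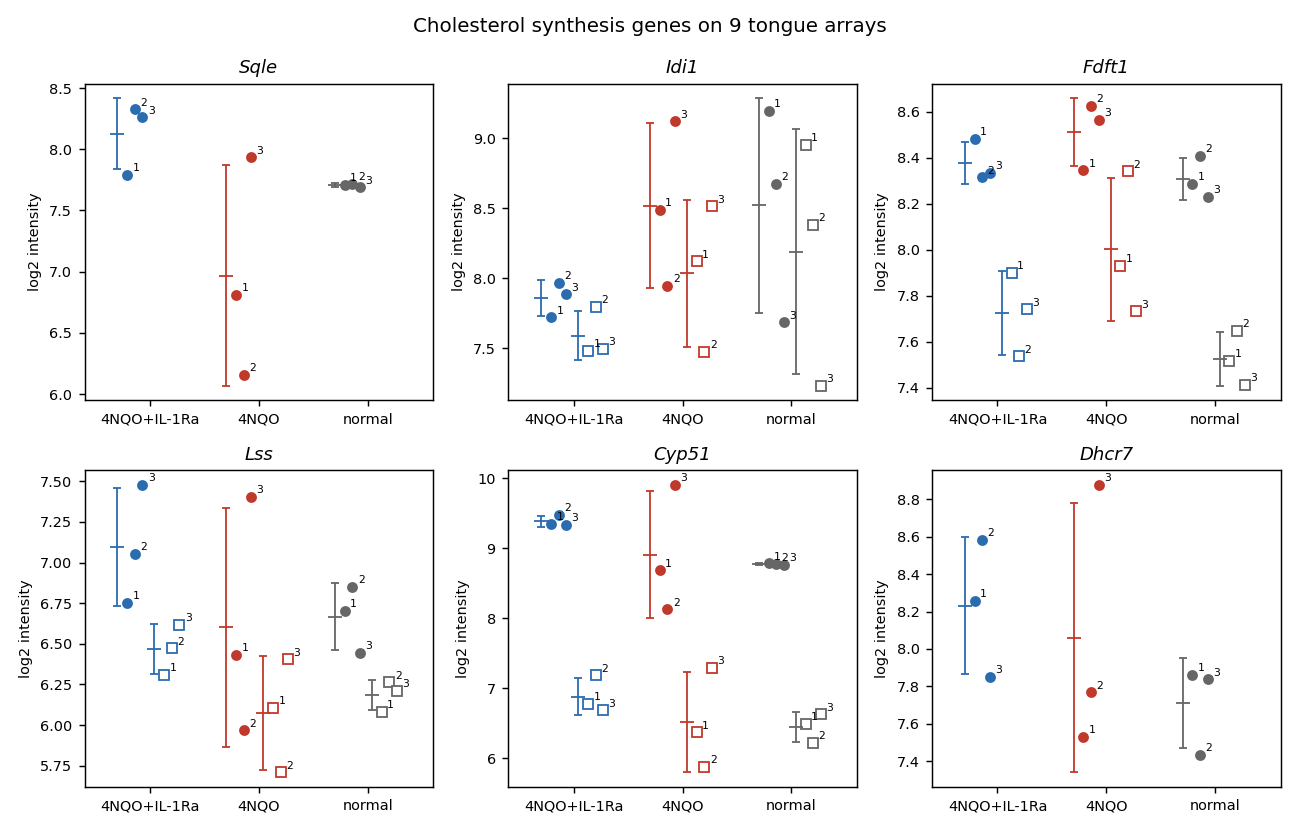
Log2 intensity of the 6 measured genes on each array, with 4NQO+IL-1Ra, 4NQO and normal arrays from left to right. Filled circles are the probe set with the highest mean, open squares the second probe set where there is one, numbers the arrays within a group, and bars the mean ± SD of 3 arrays. The 4NQO arrays of Sqle, Lss, Cyp51 and Dhcr7 spread over at least 1.34 log2, and 4NQO array 3 is the highest of its group in each.

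Idi1 encodes the isomerase that interconverts the basic isoprenoid units, the step before they are joined into chains. Its levels were 7.72, 7.97 and 7.89 log2 on the IL-1Ra arrays, 8.49, 7.95 and 9.12 on the 4NQO arrays, and 9.20, 8.67 and 7.69 on the normal arrays. The IL-1Ra arrays lay close together at the low end, while the normal arrays ranged over both other groups. Idi1 differed among normal arrays by an SD of 0.77 log2, a spread that only 0.399% of all probe sets exceeded. Its second probe set followed it over the 9 arrays (Pearson r = 0.97, a description) and had an SD of 0.88 log2 on normal arrays. The difference was -0.66 log2 for IL-1Ra against 4NQO (SE 0.37, adjusted p = 0.366 by limma) and -0.66 log2 for IL-1Ra against normal (SE 0.37, adjusted p = 0.309 by limma). With 1 array left out, these estimates ran from -0.95 (without 4NQO array 2) to -0.36 (without 4NQO array 3) and from -1.08 (without normal array 3) to -0.32 (without normal array 1). Between 4NQO and normal tongue it was -0.001 log2 (95% interval -0.82 to 0.82), and the estimate ran from -0.42 without normal array 3 to 0.34 without normal array 1.

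Fdft1 encodes squalene synthase, which joins farnesyl units into squalene and commits them to sterols. Its levels were 8.48, 8.31 and 8.33 log2 on IL-1Ra arrays, 8.35, 8.63 and 8.57 on 4NQO arrays and 8.29, 8.41 and 8.23 on normal arrays. Fdft1 was the steadiest of the 6 genes within the 4NQO group, with 1.21-fold between the highest and lowest array, and the only one with array 2 as the highest of the 4NQO arrays. The second probe set read 7.90, 7.54 and 7.74 log2 on IL-1Ra arrays, 7.93, 8.34 and 7.73 on 4NQO arrays and 7.52, 7.65 and 7.41 on normal arrays. All 4NQO arrays of that probe set lay above all normal arrays, by 0.48 log2 on average (SE 0.16, adjusted p = 0.0766 by limma). For the first probe set the differences were 0.20 log2 for 4NQO against normal (adjusted p = 0.238), -0.14 for IL-1Ra against 4NQO (adjusted p = 0.559) and 0.07 for IL-1Ra against normal (adjusted p = 0.756), all by limma. The first and last of these turned to -0.0018 and -0.052 after a cyclic loess normalization.

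Sqle encodes squalene epoxidase, which adds the oxygen needed for ring closure and is a rate-limiting step after mevalonate. Its levels were 7.79, 8.33 and 8.26 log2 on IL-1Ra arrays, 6.81, 6.16 and 7.94 on 4NQO arrays and 7.71, 7.72 and 7.69 on normal arrays. The normal arrays were almost equal (SD 0.01, smaller than in 98.5% of all probe sets), the IL-1Ra arrays all lay above them, and of the 4NQO arrays only array 3 lay above the normal level. Sqle averaged 8.13 ± 0.29 log2 in IL-1Ra, 6.97 ± 0.90 in 4NQO and 7.71 ± 0.01 in normal tongue (SD, n = 3 each). IL-1Ra tongue was above 4NQO tongue by 1.16 log2, or 2.23-fold (95% interval 1.29 to 3.87), with an unadjusted p of 0.00866 and an adjusted p of 0.12 by limma. The differences were -0.74 log2 for 4NQO against normal (SE 0.36, 95% interval -1.53 to 0.05, adjusted p = 0.179 by limma) and 0.42 log2 for IL-1Ra against normal (SE 0.36, adjusted p = 0.512 by limma). These SEs pool all 3 groups, so the second also holds the wide spread of the 4NQO arrays. With the IL-1Ra and normal arrays alone, the adjusted p was 0.107 by limma.

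Lss encodes lanosterol synthase, which closes the ring system. Its levels were 6.75, 7.05 and 7.48 log2 on IL-1Ra arrays, 6.43, 5.97 and 7.40 on 4NQO arrays and 6.70, 6.85 and 6.45 on normal arrays. The groups overlapped in every comparison, and the 4NQO arrays spanned 2.70-fold. The difference was 0.49 log2 for IL-1Ra against 4NQO (SE 0.32, adjusted p = 0.442), -0.07 for 4NQO against normal (adjusted p = 0.902) and 0.43 for IL-1Ra against normal (adjusted p = 0.453), all by limma. On its second probe set the IL-1Ra arrays lay above the normal ones (6.31, 6.47 and 6.62 log2, against 6.08, 6.26 and 6.21), with a difference of 0.28 log2 (adjusted p = 0.346 by limma).

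Cyp51 encodes the lanosterol demethylase, an early enzyme to act on the closed ring. Its levels were 9.35, 9.48 and 9.34 log2 on IL-1Ra arrays, 8.69, 8.13 and 9.91 on 4NQO arrays and 8.79, 8.77 and 8.76 on normal arrays. As for Sqle, the normal arrays were nearly equal (SD 0.01, smaller than in 98.9% of all probe sets), and all IL-1Ra arrays lay above them. The 4NQO arrays lay on both sides, 2 below the lowest normal array and 1 above the highest IL-1Ra array, 3.43-fold apart. The difference was 0.61 log2, or 1.53-fold, for IL-1Ra against normal (SE 0.34, adjusted p = 0.315), 0.48 for IL-1Ra against 4NQO (adjusted p = 0.491) and 0.13 for 4NQO against normal (adjusted p = 0.811), all by limma. The last estimate was -0.0061 after quantile normalization and -0.046 after cyclic loess. The second probe set of Cyp51 gave the same order of arrays within the 4NQO group and differences of 0.44, 0.37 and 0.07 log2. The SE pools all 3 groups, and on the first probe set the SD was 0.91 log2 in 4NQO, 0.08 in IL-1Ra and 0.01 in normal tongue. The IL-1Ra and normal arrays alone gave adjusted p = 0.0144 for the first probe set and 0.125 for the second, by limma. The name of the first probe set carries the suffix with which the array's maker marks probes that may also match transcripts of other genes.

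Dhcr7 encodes a reductase of the last steps to cholesterol. Its levels were 8.26, 8.58 and 7.85 log2 on IL-1Ra arrays, 7.53, 7.77 and 8.88 on 4NQO arrays and 7.86, 7.44 and 7.84 on normal arrays. 4NQO array 3 was the highest of all 9 and the other 4NQO arrays lay within the normal range. The difference was 0.52 log2 for IL-1Ra against normal (SE 0.32, adjusted p = 0.361), 0.35 for 4NQO against normal (adjusted p = 0.477) and 0.17 for IL-1Ra against 4NQO (adjusted p = 0.817), all by limma.

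**Figure D2:**
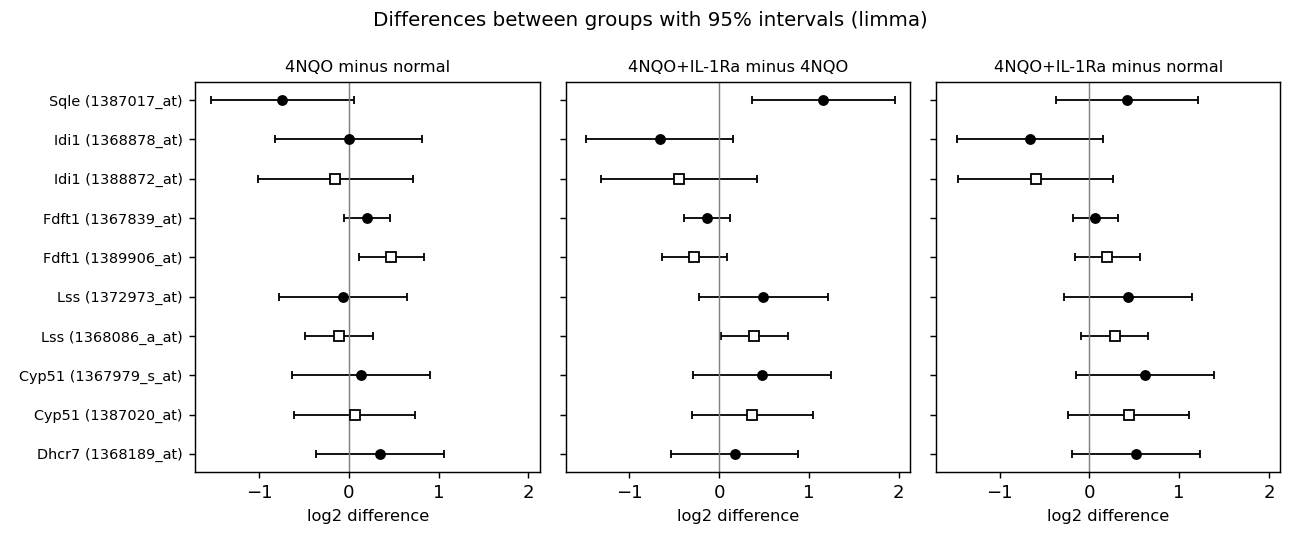
Log2 differences between group means for each of the 10 probe sets, with 95% intervals from limma, for the 3 comparisons. Filled circles are the probe set with the highest mean of a gene and open squares the second. The interval of Sqle for 4NQO+IL-1Ra minus 4NQO lies wholly above 0 (0.37 to 1.95), while none of the probe sets passed after adjustment over all 31042.

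Over the 6 genes the median difference was 0.33 log2 for IL-1Ra against 4NQO, 0.07 for 4NQO against normal and 0.42 for IL-1Ra against normal, where the medians of all probe sets were -0.02, 0.01 and -0.01. With the dimmest 40% of probe sets left out, the medians of the rest were -0.07, 0.13 and 0.08. All 10 listed probe sets were among those kept. IL-1Ra and normal arrays did not overlap in 4 of the 10 probe sets (Sqle, the second of Lss and both of Cyp51, all higher in IL-1Ra), against 35.3% of all probe sets. The count was 1 of 10 for 4NQO against normal (the second of Fdft1, higher) and 0 of 10 for IL-1Ra against 4NQO, against 38.2% and 20.6% of all. The comparisons share arrays, so their values are given side by side and were not set against each other.

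The order of the arrays within the 4NQO group recurred along the pathway. Array 2 was the lowest and array 3 the highest in 7 of the 10 probe sets, while this order held in 18.7% of all probe sets. It held in both probe sets of Idi1, Lss and Cyp51 and in that of Sqle. In Dhcr7 array 3 was the highest and array 1 the lowest, and in Fdft1 array 2 was the highest. The highest 4NQO array exceeded the lowest 3.43-fold in Sqle, 3.43-fold in Cyp51, 2.70-fold in Lss, 2.54-fold in Dhcr7 and 2.26-fold in Idi1. The median SD of the 10 probe sets was 0.18 log2 in IL-1Ra, 0.65 in 4NQO and 0.16 in normal tongue, and that of all probe sets was 0.15, 0.19 and 0.11. Measured from the mean of the normal arrays, 4NQO array 3 was higher in 6 of 6 genes, by 0.23 log2 (Sqle) to 1.16 log2 (Dhcr7). 4NQO array 1 was higher in 1 of 6 and array 2 in 2 of 6, with Sqle 0.90 and 1.55 log2 below the normal mean. Each IL-1Ra array was higher in 5 of 6, the exception being Idi1 on every one. Of all probe sets, 48% to 52.3% lay above the normal mean on each of these arrays.

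The other enzymes of the pathway, from a list of 13 of which 12 were measured, showed the same array order. Array 2 was the lowest and array 3 the highest of the 4NQO arrays in 11 of 12, and array 3 was the highest in 12 of 12. Among all probe sets the shares were 18.7% and 34.4%. Among the 9 genes of fatty acid synthesis and desaturation described below, the counts were 4 (44.4%) and 5 (55.6%). Acat2, whose product starts the route by joining acetyl-CoA units, had 7.60, 7.55 and 7.66 log2 on IL-1Ra arrays, 6.58, 6.25 and 7.54 on 4NQO arrays and 6.98, 7.18 and 7.24 on normal arrays. Fdps, the synthase of farnesyl units, had 10.43, 10.50 and 10.46 log2 on IL-1Ra arrays, 9.78, 9.56 and 10.58 on 4NQO arrays and 10.08, 9.96 and 10.05 on normal arrays. In both genes 4NQO arrays 1 and 2 lay below all normal arrays, and array 3 lay at or near the level of the IL-1Ra arrays. Against the normal mean, array 3 was higher in 11 of these 12 genes, array 1 in 2 and array 2 in 0, where all probe sets gave 48.1%, 51.4% and 52.3%. The median SD of the 12 genes was 0.09 log2 in IL-1Ra, 0.42 in 4NQO and 0.07 in normal tongue.

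**Figure D3:**
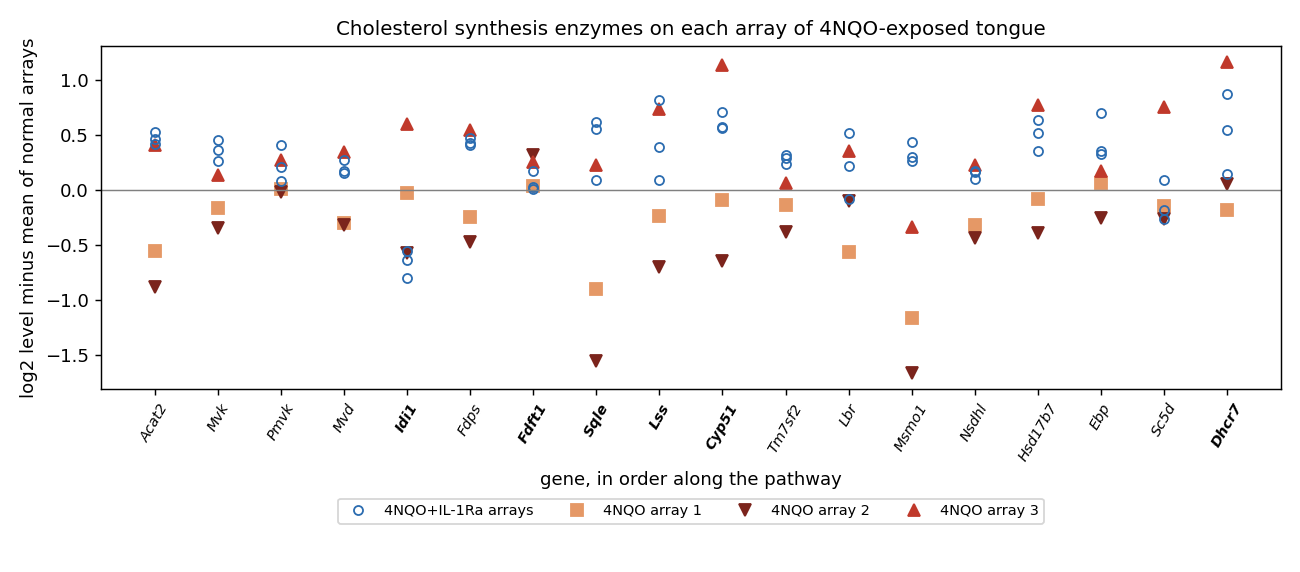
Log2 level of the 6 listed genes and 12 other cholesterol synthesis enzymes on each 4NQO+IL-1Ra and 4NQO array minus the mean of the normal arrays, with genes in pathway order and the listed genes in bold. Triangles pointing up are 4NQO array 3, above the normal mean in 6 of 6 listed genes and 11 of 12 others, the exception being Msmo1. Triangles pointing down are 4NQO array 2 and squares are 4NQO array 1, which lie mostly below the line.

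Among these 12 enzymes Msmo1, a methylsterol oxidase that acts in the steps after Cyp51, was the only one whose first probe set passed the test. Its levels were 9.78, 9.61 and 9.64 log2 on IL-1Ra arrays, 8.18, 7.68 and 9.01 on 4NQO arrays and 9.29, 9.40 and 9.33 on normal arrays, with no overlap between any groups. It rose by 1.39 log2, or 2.62-fold, in IL-1Ra against 4NQO tongue (SE 0.26, adjusted p = 0.0281 by limma), and it fell by 1.05 log2 in 4NQO against normal tongue (SE 0.26, adjusted p = 0.0279 by limma). The first call was lost without any one of the IL-1Ra arrays, 4NQO array 1, normal array 1 or normal array 3, and in a fit of the 6 compared arrays alone (adjusted p = 0.0546 to 0.103). The second was lost without 4NQO array 1 or any one of the normal arrays and in the fit of 6 arrays (adjusted p = 0.0606 to 0.0907), and without 4NQO array 2 the fall was 0.75 log2. For IL-1Ra against 4NQO 11 of 12 estimates lay above 0, with a median of 0.42 log2, 1 call and 5 of 12 genes with arrays that did not overlap (20.6% of all probe sets). For IL-1Ra against normal 11 of 12 lay above 0, with a median of 0.31 log2, 0 calls (3 of 12 at an unadjusted p of 0.05, against 22.7% of all probe sets) and 10 of 12 genes whose IL-1Ra arrays all lay above the normal arrays, where 35.3% of all probe sets did not overlap in either direction. After quantile normalization or cyclic loess, 11 of 12 estimates for IL-1Ra against normal still lay above 0, but the median was 0.23 log2 in each. The count at an unadjusted p of 0.05 was then 0 of 12, and the overlap of arrays is given for the deposited values only. For 4NQO against normal the median was -0.10 log2, and 3 of 12 estimates lay above 0, against 0 of 12 after quantile normalization or cyclic loess. Second probe sets of Sc5d and Nsdhl, which act late in the pathway, were called higher in 4NQO than in normal tongue (0.73 log2, adjusted p = 0.0206, and 0.54 log2, adjusted p = 0.0385, by limma), while their first probe sets were not (0.12 and -0.18 log2). Both calls were lost after quantile normalization and cyclic loess (adjusted p = 0.0611 to 0.162) and without normal array 1 or 3 (0.0718 to 0.114). That of Nsdhl was also lost in the fit of 6 arrays (0.0678) and without normal array 2 (0.112), 4NQO array 1 (0.0548) or 3 (0.0584), or IL-1Ra array 1 (0.0539) or 2 (0.0527).

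The number of calls in the pathway changed with 4NQO array 3, while both calls of Msmo1 held with and without it. That array was singled out from these same values, as the highest of its group in most of these genes. Leaving it out therefore lowers the 4NQO mean of those genes, and the counts that follow are a description. Without 4NQO array 3, the number of listed genes called was 3 of 6 for IL-1Ra against 4NQO, 1 of 6 for 4NQO against normal and 1 of 6 for IL-1Ra against normal. Sqle was then 1.64 log2 higher in IL-1Ra than in 4NQO tongue (adjusted p = 0.0055 by limma) and 1.22 log2 lower in 4NQO than in normal tongue (adjusted p = 0.0128 by limma). Lss was 0.90 log2 higher (adjusted p = 0.0476) and Cyp51 0.98 log2 higher (adjusted p = 0.0111) in IL-1Ra than in 4NQO tongue, and Cyp51 was 0.61 log2 higher in IL-1Ra than in normal tongue (adjusted p = 0.0388), all by limma. The estimate of Cyp51 for 4NQO against normal turned to -0.37 log2 and that of Dhcr7 to -0.06. Of the 12 other enzymes, 8 were then called higher in IL-1Ra than in 4NQO tongue, 3 lower in 4NQO than in normal tongue and 2 higher in IL-1Ra than in normal tongue. Among all probe sets the shares called in those directions without that array were 3.78%, 4.75% and 4.83%. Counted over the 10 probe sets, 3, 2 and 1 were called for IL-1Ra against 4NQO, 4NQO against normal and IL-1Ra against normal. The second probe set of Fdft1 was among them, higher in 4NQO than in normal tongue by 0.61 log2 (adjusted p = 0.038 by limma), where 9.33% of all probe sets were called higher. The second probe sets of Lss (0.56 log2, adjusted p = 0.0565) and Cyp51 (0.76 log2, adjusted p = 0.0581) were not called for IL-1Ra against 4NQO. Leaving out 4NQO array 2 moved the estimates the other way, to 0.75 log2 for Sqle, 0.18 for Lss and 0.09 for Cyp51 in IL-1Ra against 4NQO, and to -0.33 for Sqle in 4NQO against normal (adjusted p = 0.453 by limma). The labels give no ground for leaving out either array, and both were kept in every value of the main comparison.

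**Figure D4:**
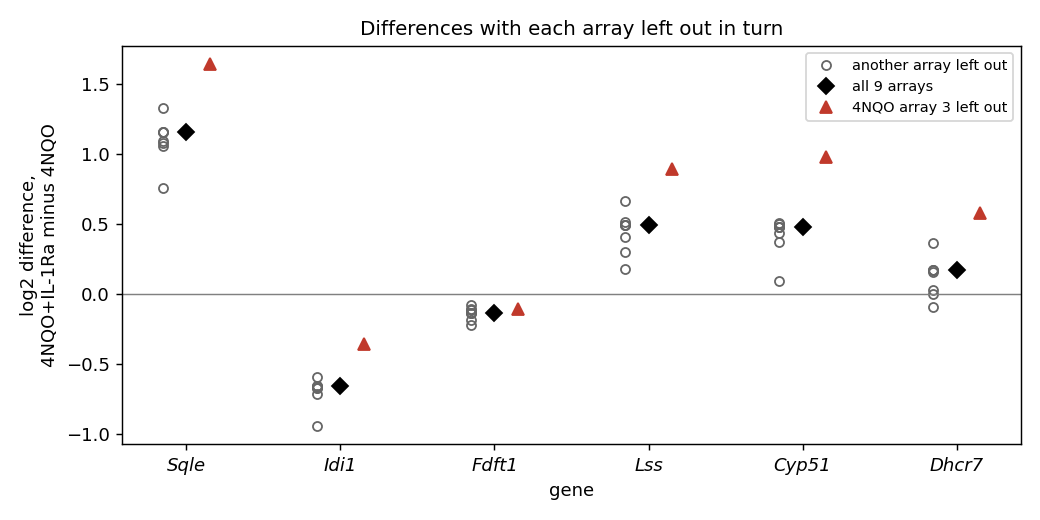
Log2 difference, 4NQO+IL-1Ra minus 4NQO, of the 6 genes from all 9 arrays (diamonds), with 4NQO array 3 left out (triangles) and with each of the other 8 arrays left out in turn (open circles). Leaving out 4NQO array 3 gives the highest value for Sqle (1.64), Idi1, Lss, Cyp51 (0.98) and Dhcr7, and Fdft1 changes little.

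Other features of the tissue moved with the same arrays. The summed intensity of 8 measured cornified keratinocyte markers, of 11 listed, was 31160 to 31989 in IL-1Ra tongue, 15220, 4209 and 20492 on 4NQO arrays 1, 2 and 3, and 23678 to 28697 in normal tongue. Such sums are weighted toward the brightest markers, here Loricrin and Sprr1a. For 4NQO against normal, 1 of these 8 markers lay above 0. This was Krt1 (1.86 log2), with 9.08, 6.73 and 11.71 log2 on 4NQO arrays and 7.47, 6.77 and 7.70 on normal arrays. The sum of all 7 basal keratinocyte markers was 15669 to 19976 in IL-1Ra tongue, 14678, 15382 and 27652 on the 4NQO arrays and 7926 to 13719 in normal tongue. The sum of all 4 markers of cycling cells was 716 to 977 in IL-1Ra tongue, 722, 475 and 1260 on the 4NQO arrays and 453 to 720 in normal tongue. 4NQO array 3 thus had the highest basal and cycling sums of the 9 arrays, and 4NQO array 2 the lowest cornified sum. The 7 fibroblast markers summed to 12871 to 16601 in IL-1Ra, 4628 to 14012 in 4NQO (array 2 lowest) and 19164 to 22214 in normal tongue, and the 3 measured Schwann cell markers, of 5 listed, to 572 to 1016, 556 to 1741 (array 3 lowest) and 803 to 1651 in the same groups. Sums of the 9 measured skeletal muscle markers, of 10 listed, were 46227 to 52979 in IL-1Ra, 49262 to 61812 in 4NQO and 53765 to 60829 in normal tongue. All 5 adipocyte markers together gave 1003 to 1427, 1370 to 2174 and 2004 to 2123 in those groups. Most of this sum was Fabp4, at a mean of 9.77 log2 in IL-1Ra, 10.54 in 4NQO and 10.88 in normal tongue. Gene by gene, 3 of the 5 adipocyte markers lay above 0 for IL-1Ra against normal (median 0.11 log2). The same number did for 4NQO against normal (median 0.64 log2), so the sum does not describe the list. For the remaining lists the sums in IL-1Ra, 4NQO and normal tongue were 1061 to 1300, 1317 to 1850 and 938 to 1094 over 5 endothelial markers (of 6 listed), 701 to 996, 388 to 1003 and 592 to 896 over 6 macrophage markers, 144 to 199, 104 to 150 and 118 to 132 over 5 T cell markers, and 65 to 107, 49 to 57 and 65 to 69 over 4 gland markers. None of the measured markers of these lists lay below the lower quartile of all values on all 9 arrays, a check that 1 brighter array is enough to pass. The gland marker Bpifb1 read 5.50 log2 on IL-1Ra array 2, which gave the gland maximum of 107, and 3.30 and 3.26 on the other IL-1Ra arrays. The part of these cell types in the levels of the cholesterol enzymes was not tested. As signs of RNA quality, the log2 difference between 3′ and 5′ probe sets of beta-actin was 0.98 to 1.27 in IL-1Ra, 1.07 to 1.29 in 4NQO and 0.74 to 0.86 in normal tongue, and that of GAPDH was 0.26 to 0.28, 0.31 to 0.43 and 0.23 to 0.30, with both maxima on 4NQO array 3. The part of these differences in the result was not tested.

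Of the 7 genes of sterol sensing, 1 was called higher and 1 lower in 4NQO than in normal tongue, and 0 were called in the other comparisons (2 and 1 at an unadjusted p of 0.05 for IL-1Ra against 4NQO and against normal). Of all probe sets, 9.41% were called higher and 5.44% lower in 4NQO than in normal tongue, and 19% and 22.7% passed unadjusted in the other comparisons. The list medians were -0.0032 log2 for IL-1Ra against 4NQO, 0.20 for 4NQO against normal and 0.18 for IL-1Ra against normal. Insig1, which is itself a known target of SREBP, had 8.71, 9.57 and 8.64 log2 on IL-1Ra arrays, 7.84, 7.61 and 8.18 on 4NQO arrays and 8.80, 8.59 and 8.99 on normal arrays. All 4NQO arrays lay below all others, with array 2 again the lowest and array 3 the highest of the group. Insig1 fell by 0.92 log2 in 4NQO against normal tongue (SE 0.24, adjusted p = 0.0351 by limma), a call lost without 4NQO array 1 or 2 or any one of the normal arrays (adjusted p = 0.0687 to 0.127). In IL-1Ra against 4NQO tongue the difference was 1.10 log2 (SE 0.24, adjusted p = 0.0506 by limma), which passed without 4NQO array 3 (1.25 log2, adjusted p = 0.0265) and in 5 other settings (adjusted p = 0.0432 to 0.0463). Scap was 0.43 log2 higher in 4NQO than in normal tongue (SE 0.11, adjusted p = 0.0328 by limma). This call was lost after quantile normalization (0.27, adjusted p = 0.137) and cyclic loess (0.22, adjusted p = 0.235), in the fit of 6 arrays, and without 4NQO array 3 or any one of the normal arrays (adjusted p = 0.0597 to 0.115). In IL-1Ra against normal tongue Scap differed by 0.43 log2 (adjusted p = 0.0704 by limma), which passed without 4NQO array 3 (adjusted p = 0.0355). A second, dimmer probe set of Scap averaged 4.43 log2 in IL-1Ra, 3.91 in 4NQO and 4.10 in normal tongue, and so was not higher in 4NQO than in normal tongue. Srebf2, which encodes the SREBP chiefly in charge of sterol synthesis, had 7.34, 7.60 and 7.73 log2 on IL-1Ra arrays, 7.65, 7.08 and 7.99 on 4NQO arrays and 7.75, 7.47 and 7.45 on normal arrays. Its differences were -0.019 log2 for IL-1Ra against 4NQO, 0.019 for 4NQO against normal and 0.00024 for IL-1Ra against normal, and each changed sign under quantile normalization and cyclic loess. Srebf1 had differences of 0.16, 0.21 and 0.37 log2 and Insig2 of -0.041, 0.047 and 0.0052 in the same order, and neither passed.

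The 9 genes of fatty acid synthesis and desaturation, which are driven mainly by the Srebf1 product, held 0 calls in each comparison (3, 0 and 4 at an unadjusted p of 0.05 for IL-1Ra against 4NQO, 4NQO against normal and IL-1Ra against normal, where all probe sets gave 19%, 32.9% and 22.7%). Their medians were 0.44, 0.17 and 0.31 log2 in that order. In Fasn, the fatty acid synthase, a second probe set was higher in IL-1Ra than in normal tongue (7.46, 7.21 and 8.34 log2, against 6.45, 6.20 and 6.12), by 1.41 log2 (adjusted p = 0.044 by limma), while the first gave 0.93 log2 (adjusted p = 0.0803). The call was lost after quantile normalization (0.0566) and cyclic loess (0.065), without 4NQO array 1 (0.0559) and without any one of the IL-1Ra or normal arrays (adjusted p = 0.0817 to 0.171).

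Among 6 measured genes, of 7 listed, for other products of mevalonate, 3 were called higher in 4NQO than in normal tongue and 0 in the other comparisons (0 at an unadjusted p of 0.05 for IL-1Ra against 4NQO and 3 for IL-1Ra against normal). Of all probe sets, 9.41% were called higher in 4NQO than in normal tongue, and 19% and 22.7% passed unadjusted in the other comparisons. The genes called were Coq2, of coenzyme Q synthesis (0.63 log2, adjusted p = 0.0265), Dhdds, of dolichol synthesis (0.50 log2, adjusted p = 0.0352), and Fntb, a farnesyltransferase subunit (0.44 log2, adjusted p = 0.0428), all by limma. Each of the 3 calls was lost after quantile normalization and cyclic loess (adjusted p = 0.0945 to 0.308) and without either 4NQO array 1 or 2 or any one of the normal arrays (adjusted p = 0.051 to 0.142). That of Dhdds was also lost without 4NQO array 3 (0.0707) or IL-1Ra array 2 (0.0522) and in the fit of 6 arrays (0.0508), and that of Fntb without IL-1Ra array 3 (0.0541). The list medians were -0.24 log2 for IL-1Ra against 4NQO, 0.47 for 4NQO against normal and 0.30 for IL-1Ra against normal.

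For sterol export, storage and trafficking, 13 of 14 listed genes were measured, and 2 were called higher in 4NQO than in normal tongue, 0 in IL-1Ra against 4NQO (3 at an unadjusted p of 0.05) and 1 higher in IL-1Ra than in normal tongue, where the shares of all probe sets were 9.41%, 19% at the unadjusted p and 1.33%. Scarb1, a receptor that takes up cholesterol from high-density lipoprotein, had 5.78, 5.83 and 6.78 log2 on IL-1Ra arrays, 6.61, 6.30 and 6.63 on 4NQO arrays and 4.97, 5.43 and 5.45 on normal arrays. It rose by 1.23 log2, or 2.35-fold, in 4NQO against normal tongue (SE 0.25, adjusted p = 0.0156 by limma), and the call was lost without normal array 1 or 3 (adjusted p = 0.0551 and 0.0521). Soat1, which esterifies cholesterol for storage, was 0.72 log2 higher in 4NQO than in normal tongue (adjusted p = 0.0293 by limma), a call lost without 4NQO array 1 or 3 or any one of the normal arrays (adjusted p = 0.0586 to 0.0844). A second, dimmer probe set of Soat1 averaged 3.40 log2 in 4NQO and 3.67 in normal tongue, the other direction. Abcg1, a sterol exporter, was 0.64 log2 higher in IL-1Ra than in normal tongue (adjusted p = 0.044 by limma), lost after quantile normalization and cyclic loess (0.0699 and 0.0743), without 4NQO array 1 (0.054) and without any one of the IL-1Ra or normal arrays (adjusted p = 0.0831 to 0.171). Its other probe sets differed in direction, with means of 5.15 log2 in IL-1Ra against 4.70 in normal tongue, and of 5.56 against 5.76. A second probe set of Abca1, also an exporter, was 0.81 log2 higher in 4NQO than in normal tongue (adjusted p = 0.0136 by limma), a call lost without normal array 3 (0.0615). The first probe set of Abca1 averaged 8.16 log2 in 4NQO and 7.61 in normal tongue and was not called. The medians of the list were -0.22 log2 for IL-1Ra against 4NQO, 0.31 for 4NQO against normal and 0.16 for IL-1Ra against normal.

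The 6 genes were not alike among themselves. Over the 9 arrays each gene was set against the mean of the other 5 after scaling, as a description in which the arrays share groups. Pearson r was 0.88 for Cyp51, 0.77 for Lss, 0.69 for Dhcr7, 0.51 for Sqle, 0.16 for Idi1 and -0.06 for Fdft1. Among 10969 brighter genes compared, those most like the mean profile of the 6 over the 9 arrays were Actl6a (r = 0.96), Afg3l1 (0.95), Slco4a1 (0.94), Trappc3 (0.94), Copb2 (0.93) and Mphosph6 (0.92). Actl6a had 7.86, 7.89 and 7.98 log2 on IL-1Ra arrays, 7.66, 7.55 and 8.30 on 4NQO arrays and 7.84, 7.65 and 7.64 on normal arrays. The profile was highest on 4NQO array 3 and lowest on 4NQO array 2, and r of these genes without those 2 arrays was 0.77 to 0.86.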

How the data were processed

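Total RNA of rat tongue was hybridised to Affymetrix rat expression arrays, and per the submitters' processing notes the tools were RMA and Affymetrix Expression Console (versions not given in the sources used here). RMA corrects background, is meant to make array distributions alike and summarises each probe set, and may hide a shift shared by most genes. The deposited distributions still differed. Lower quartiles were 3.60 to 3.70 log2 on IL-1Ra, 3.61 to 3.66 on 4NQO and 3.73 to 3.78 on normal arrays. Upper quartiles were 7.16 to 7.26, 7.21 to 7.28 and 7.04 to 7.08 log2 in that order. The values the authors deposited were linear intensities, which were turned into log2 before testing. Of 31099 probe sets, 57 controls were left out. Probe sets were named where the platform annotation gave a single symbol (20826). The means of the 3 groups were estimated over the 9 arrays together by limma 3.58.1 (R 4.3.3, with 6 residual and 4.01 prior degrees of freedom), with two-sided tests, Benjamini-Hochberg adjustment over 31042 probe sets in each comparison and a threshold of 0.05. The groups shared 1 estimate of spread for each probe set, so a p-value for any pair also reflects the spread of the remaining group. The procedure was tested on simulated data. Array pairs correlated at 0.967 to 0.995, and 0 pairs were identical. The number of arrays limits the precision.

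For each gene, counts used the probe set whose mean over the arrays was largest. All listed genes were named whatever their values. Of each other list, genes that passed (at most 4 per comparison) and the regulators Srebf2, Srebf1, Scap, Insig1 and Insig2 were named, and second probe sets were named after their values were seen. The members and lists were chosen with earlier results of these data known. Alternatives were quantile normalization, cyclic loess, leaving out the dimmest 40% of probe sets, an intensity trend with robust variances, array weights, the 6 compared arrays alone, other probe sets, the methods' t-test and leaving out each array. The detailed counts without 4NQO array 3 and the alternatives for other pathway genes were added after the data were seen. Some genes of the pathway are not reported here. Plots used Python 3.11.15 with matplotlib 3.10.9.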

Additional observations from a re-analysis of the deposited data

How the results depend on the processing

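The count of listed genes called was 0 in each comparison and stayed 0 after quantile normalization, cyclic loess, the filter on dim probe sets, the intensity trend with robust variances, counting every probe set, and the methods' t-test with adjustment. With array weights it was 1 for IL-1Ra against 4NQO (Sqle, 1.28 log2 higher, adjusted p = 0.0445) and 1 for 4NQO against normal (Sqle, -0.84 log2, adjusted p = 0.0475). In that setting, 533 of all 31042 probe sets were called higher in the first comparison and 2041 lower in the second. For IL-1Ra against normal the count of listed genes was 1 (Cyp51) in the fit of the 6 compared arrays alone (adjusted p = 0.0144) and by the methods' t-test with a fold of at least 1.5. That fit called 1855 of all probe sets higher, and no count over all probe sets is given for the t-test. Leaving out each array in turn gave 0 to 3 listed genes for IL-1Ra against 4NQO, 0 to 1 for 4NQO against normal and 0 to 1 for IL-1Ra against normal, each maximum without 4NQO array 3. The cause was not tested. No paired analysis was possible because the labels give no 2 replicate numbers shared between groups.

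Estimates that changed sign were all short of the threshold. For 4NQO against normal, cyclic loess gave -0.0018 for Fdft1, -0.046 for Cyp51, -0.20 for Srebf2, -0.0031 for Srebf1 and -0.17 for Insig2, and quantile normalization gave -0.0061 for Cyp51, -0.16 for Srebf2 and -0.14 for Insig2. For IL-1Ra against 4NQO, Srebf2 was 0.015 after quantile normalization and 0.063 after cyclic loess, and Insig2 was 0.038 after cyclic loess. For IL-1Ra against normal, quantile normalization and cyclic loess gave -0.054 and -0.052 for Fdft1, -0.15 and -0.14 for Srebf2 and -0.15 and -0.13 for Insig2, and array weights gave -0.015 for Srebf2.

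With each array left out, the ranges for 4NQO against normal were -0.42 to 0.34 for Idi1, -0.47 to 0.25 for Lss, -0.37 to 0.52 for Cyp51, -0.062 to 0.61 for Dhcr7, -0.19 to 0.27 for Srebf2 and -0.10 to 0.16 for Insig2. For IL-1Ra against 4NQO they were -0.092 to 0.58 for Dhcr7, -0.27 to 0.19 for Srebf2, -0.0066 to 0.29 for Srebf1, -0.043 to 0.091 for Scap and -0.15 to 0.10 for Insig2. For IL-1Ra against normal they were -0.086 to 0.11 for Srebf2, -0.12 to 0.35 for Insig1 and -0.073 to 0.13 for Insig2.

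Over all probe sets, IL-1Ra against normal gave 413 higher and 168 lower calls, against 94 and 109 after quantile normalization and 34 and 63 after cyclic loess. The share of higher calls in that comparison was 71.1%, against 46.3% and 35.1%. It was 68.6% for IL-1Ra against 4NQO, against 76.1% and 79.9%, and 63.4% for 4NQO against normal, against 51.9% and 47.7%. For 4NQO against normal there were 2922 higher and 1688 lower calls, against 1463 and 1358 after quantile normalization and 1182 and 1298 after cyclic loess. For IL-1Ra against normal, array weights gave 2261 and 1295, the fit of 6 arrays 1855 and 859, and the filter on dim probe sets 649 and 201. For IL-1Ra against 4NQO there were 495 and 227, against 184 and 11 in the fit of 6 arrays. Leaving out each array gave 164 to 1173 higher and 20 to 1180 lower calls for IL-1Ra against 4NQO, 597 to 2896 and 254 to 1679 for 4NQO against normal, and 0 to 1499 and 0 to 585 for IL-1Ra against normal. The maxima for both IL-1Ra comparisons came without 4NQO array 3, and the minima came without IL-1Ra array 2, without normal array 3 and without any one of the normal arrays in that order of comparisons.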
